A study of Mus musculus with 4 samples.

Results

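The genes described here are 38 genes by which endothelial cells, the cells that line blood vessels, are commonly recognised, chosen by gene symbol from the 45706 genes of the count table, and all 38 were found once. Counts came from left lung lobes of embryonic day 17 (E17) C57BL/6 mice that received no treatment, with 2 *Myh10*+/+ lungs and 2 lungs homozygous for *Myh10* L458R, called *Myh10*-/-. *Myh10* encodes the heavy chain of non-muscle myosin II-B, L458R replaces a leucine by arginine in its motor domain, and it arose by chemical (ENU) mutagenesis, so every cell of the embryo carries it. Each lobe was sequenced whole, so fewer endothelial cells and less RNA per endothelial cell cannot be told apart in these counts.

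Endothelial cells hold together through adherens and tight junctions, carry a coat of sialomucins on the side facing the blood, and keep their identity through transcription factors of the ETS, SOXF, GATA and basic helix-loop-helix families. In the late fetal lung they form the capillary net that comes to lie against the alveolar epithelium. Several of these genes are also active in blood cells, which share an origin with endothelium, and *Podxl*, *Cd34* and *Cdh13* are known in mesothelium, fibroblasts or smooth muscle as well.

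Reads counted on genes numbered between 19116971 and 32055306 per lung. *Myh10* itself was at 505 and 504 CPM (counts per 1000000 reads counted, scaled with the TMM factors of edgeR) in *Myh10*+/+ lungs and at 539 and 513 CPM in *Myh10*-/- lungs, and a substitution of this kind is not expected to be visible in a read count. *Xist* and the Y-linked *Ddx3y* showed that lung 1 of *Myh10*+/+ and lung 2 of *Myh10*-/- came from females and the other two from males, so both sexes are present in each genotype. Fold changes below are *Myh10*-/- over *Myh10*+/+ on the log2 scale, tested with the quasi-likelihood test of edgeR. P-values were adjusted by Benjamini and Hochberg's method across 18763 genes, those averaging 5 counts or more per lung. The labels do not say whether the lungs came from separate litters, and p-values measure the spread between these 4 lungs.

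All 38 genes were tested, with mean counts from 51.5 for *Cdh13* to 9564.25 for *Cd93*, and 35 of them had a mean of at least 500 counts. Their share of all reads counted was 0.442% in the lowest lung and 0.480% in the highest. Because long transcripts collect more reads, levels of different genes are compared per kb of annotated exon. That length pools the exons of all annotated transcripts of a gene and can be much longer than any single transcript. The order of the genes below depends on this choice, and no other length was tried. *Cdh5*, which encodes VE-cadherin, the adhesion molecule of endothelial adherens junctions, had the highest such level, 89.0 CPM per kb in *Myh10*+/+ and 83.4 CPM per kb in *Myh10*-/- lungs. *Cldn5*, a claudin of endothelial tight junctions, followed with 84.2 and 66.7 CPM per kb, and *Egfl7*, a secreted vascular factor, with 74.4 and 69.7 CPM per kb. *Calcrl*, *Pecam1*, *Cd93*, *Podxl* and *Esam* lay between 53.9 and 64.3 CPM per kb in *Myh10*+/+ lungs, and of the 37 pairs of neighbours in the whole order 10 had overlapping *Myh10*+/+ lungs, among them *Cdh5* with *Cldn5*, *Pecam1* with *Cd93* and *Podxl* with *Esam*. At the other end were *Vwf* with 2.34, *Bmx* with 1.11 and *Cdh13* with 0.238 CPM per kb in *Myh10*+/+ lungs. The defining genes *Cdh5*, *Pecam1* and *Erg* were thus well counted in every lung, while the kinase gene *Bmx* and the cadherin gene *Cdh13* rest on 46 to 119 reads per lung.

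**Figure D1:**
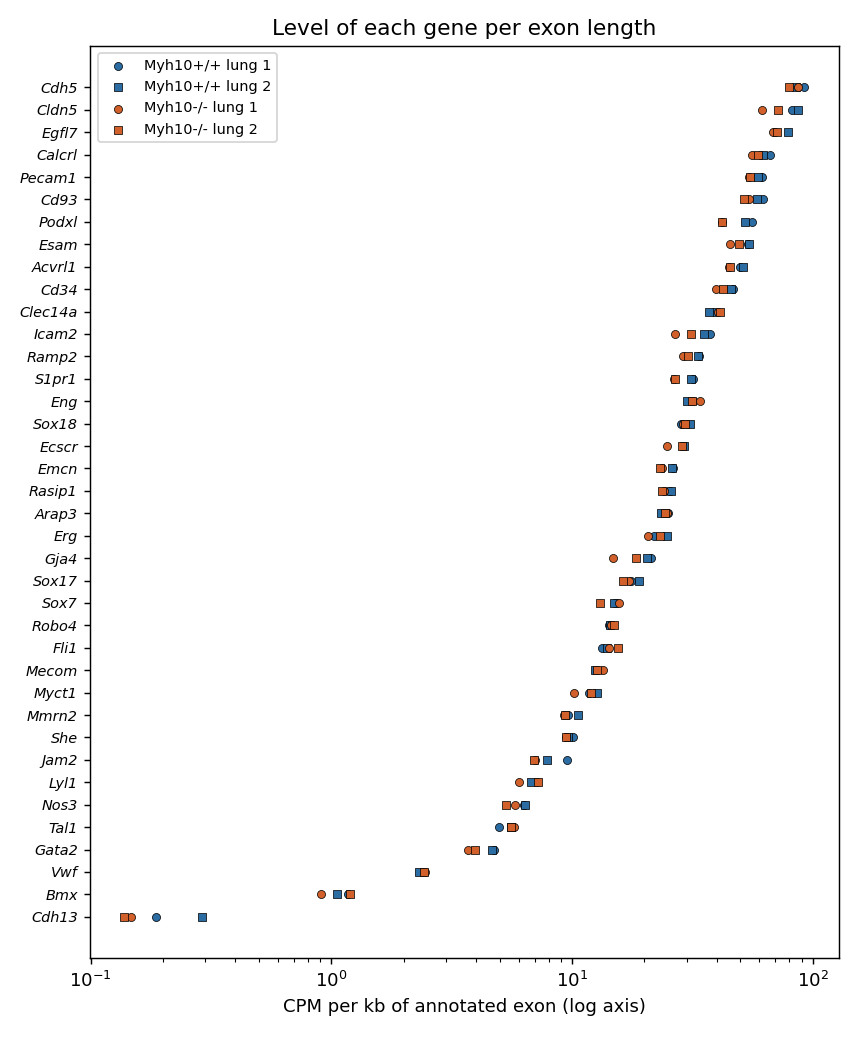
Level of each of the 38 genes in each of the 4 lungs, in CPM per kb of annotated exon on a log axis, ordered by the mean of the 2 *Myh10*+/+ lungs (blue) with *Myh10*-/- lungs in orange. Levels span from 89.0 CPM per kb for *Cdh5* to 0.238 for *Cdh13*, and for most genes the genotypes differ by far less than the genes differ from each other.

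Of the 38 genes, *Podxl* and *Cldn5* passed an adjusted p-value of 0.05, both lower in *Myh10*-/- lungs, and none passed in the other direction. Among all genes tested 1.64% were called, 1.34% lower and 0.298% higher, so that 81.8% of all calls were lower (67.6% when scaled by library totals). The median log2 fold change of the 38 genes was -0.12, a fold of 0.918, beside 0.002 for all genes tested. It was below 0 for 30 of the 38 genes, against 49.5% of all genes and 51.6% of those averaging at least 50 counts. In 22 of the 38 genes both *Myh10*-/- lungs lay below both *Myh10*+/+ lungs, against 24.3% of all genes tested and 27.5% of those averaging at least 50 counts, and in 5 they lay above, against 23.9%. At an unadjusted p-value under 0.05, 17 of the 38 were lower and 0 higher, against 9.02% and 7.52% of all genes. These genes share the same cells and the same 4 lungs, so their number does not stand for independent observations. They were also chosen with earlier results of these data known, so the shares are a description and not a test.

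How many of the 38 passed depended on the setting, with *Podxl* called lower in each one listed here and no gene higher. At an adjusted p under 0.1 there were 5 (2.52% of all genes were lower), the others being *Cldn5*, *Icam2*, *S1pr1* and *Gata2*. There were 12 with no filter on low counts (2.41% of all genes), 1 among genes averaging at least 250 counts (1.52%), 4 with robust fitting (1.81%) and 4 without chromosomes X, Y and MT (1.6%). Correcting for GC content and for exon length gave 5 (1.75%), and leaving out *Myh10*-/- lung 2 gave 12 (5.14%). With the replicate number as a block 7 genes were lower (2.48%), with that block and the correction 6 (2.44%), and with the numbers crossed 3 (1.71%). The crossed numbers group the lungs by sex.

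**Figure D2:**
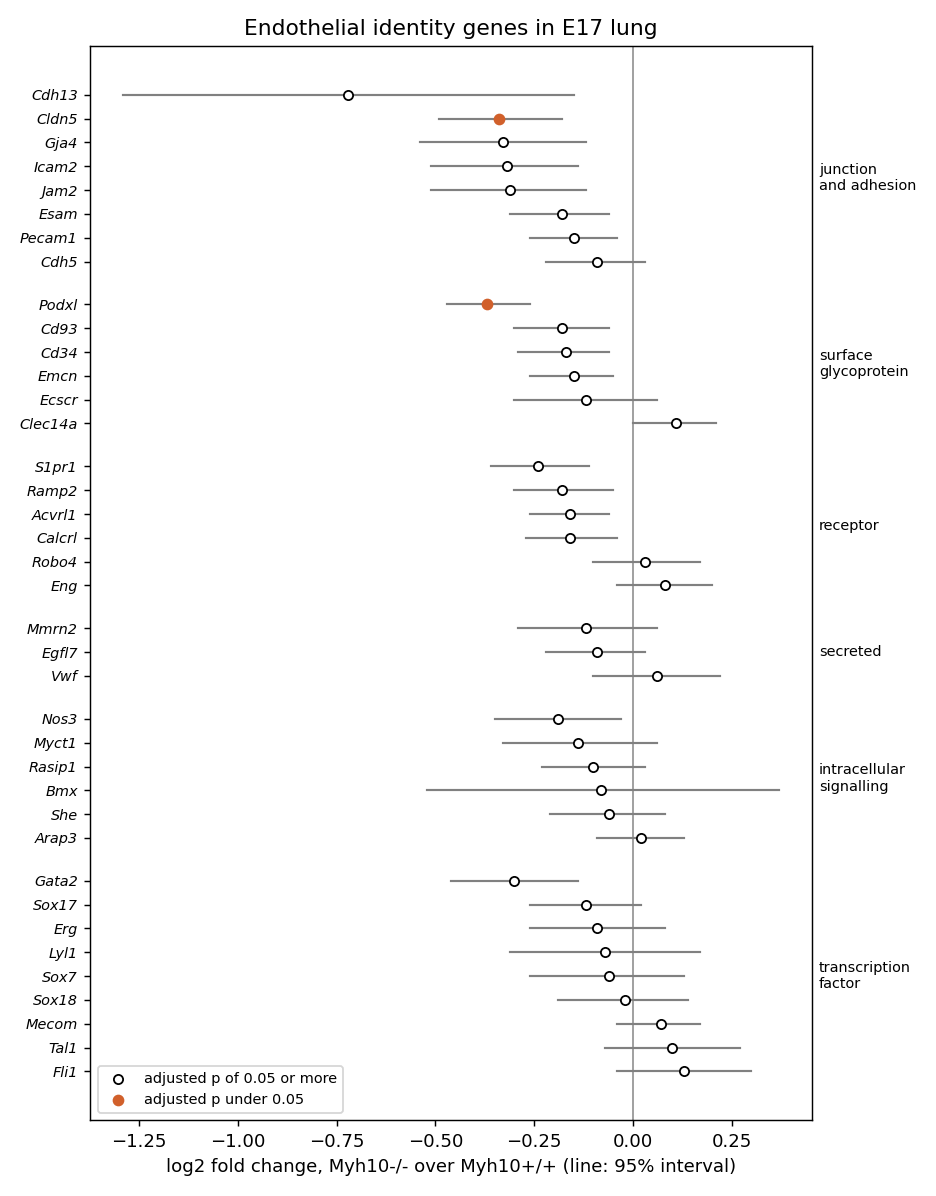
Log2 fold change (*Myh10*-/- over *Myh10*+/+, edgeR, n = 2 lungs each) of the 38 genes by role, with lines for the 95% interval. Filled points mark *Podxl* and *Cldn5*, and 21 of the 38 intervals include 0.

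The difference between genotypes was small but exceeded that between replicates when the 38 genes were compared lung by lung. Over the 38 genes the median log2 difference was -0.02 between the *Myh10*+/+ lungs and 0.02 between the *Myh10*-/- lungs. Between genotypes it was -0.15 and -0.11 for *Myh10*-/- lungs 1 and 2 against *Myh10*+/+ lung 1, and -0.16 and -0.12 against *Myh10*+/+ lung 2. The CPM summed over the 38 genes was 4854 and 4769 in *Myh10*+/+ and 4383 and 4428 in *Myh10*-/- lungs.

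The 8 junction and adhesion genes had the lowest median, -0.32, and all 8 had a log2 fold change below 0. *Cldn5* was counted at 116 and 123 CPM in *Myh10*+/+ lungs and at 87.4 and 101 CPM in *Myh10*-/- lungs. Both *Myh10*-/- lungs were lower, with lung 1 the lowest, and *Cldn5* fell by 0.34 on the log2 scale (standard error 0.07, adjusted p = 0.0379 from edgeR). Without *Myh10*+/+ lung 2, the lung with the highest value, its adjusted p was 0.104 and its log2 fold change -0.29.

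*Gja4*, which encodes the gap junction protein connexin 37 of arterial endothelium, was at 35.8 and 34.6 CPM in *Myh10*+/+ and 24.9 and 31.0 CPM in *Myh10*-/- lungs. *Icam2*, an adhesion molecule on which leukocytes dock, was at 71.2 and 67.4 CPM in *Myh10*+/+ and 51.0 and 59.7 CPM in *Myh10*-/- lungs. In both genes the genotypes did not overlap and *Myh10*-/- lung 1 was the lowest. Their log2 fold changes, -0.33 (95% interval -0.54 to -0.12) and -0.32 (-0.51 to -0.14), did not pass, with adjusted p-values of 0.113 and 0.0786. With a lung left out, that of *Gja4* lay between -0.184 without *Myh10*-/- lung 1 and -0.498 without *Myh10*-/- lung 2 (adjusted p = 0.515 and 0.00011). For *Icam2* these were -0.214 and -0.44 (adjusted p = 0.169 and 0.000851), and *Icam2* was called in 6 of 17 alternative settings, DESeq2 among them (adjusted p = 0.0303). *Jam2*, a junctional adhesion molecule, was at 57.5 and 47.5 CPM in *Myh10*+/+ and 42.5 and 42.1 CPM in *Myh10*-/- lungs, and *Myh10*+/+ lung 1 stood above the others (log2 fold change -0.31, adjusted p = 0.113). It was -0.167 without that lung (adjusted p = 0.483) and -0.444 without *Myh10*+/+ lung 2 (adjusted p = 0.0254), where *Jam2* was called.

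*Pecam1*, which encodes CD31 at endothelial cell borders, was at 384 and 370.2 CPM in *Myh10*+/+ and 339.8 and 340.5 CPM in *Myh10*-/- lungs. The genotypes did not overlap, but the log2 fold change of -0.15 (95% interval -0.26 to -0.04, adjusted p = 0.157) did not pass. *Cdh5* was at 388 and 359 CPM in *Myh10*+/+ and 365 and 336 CPM in *Myh10*-/- lungs. Here the genotypes overlapped, and the interval of its log2 fold change, -0.22 to 0.03, includes 0 and leaves out a fall of the median size of the junction genes. *Esam*, another junctional adhesion molecule, had a log2 fold change of -0.18 (adjusted p = 0.119). *Cdh13*, which encodes T-cadherin, was at 2.10 and 3.26 CPM in *Myh10*+/+ and 1.65 and 1.55 CPM in *Myh10*-/- lungs. Its log2 fold change was -0.72, with a 95% interval from -1.29 to -0.15 and an adjusted p of 0.194. This was the lowest of the 38 with all lungs, but it rests much on *Myh10*+/+ lung 2, without which it was -0.39 (adjusted p = 0.767), above *Jam2* and *Podxl*.

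Among the 6 surface glycoprotein genes the median was -0.16, and in 5 both *Myh10*-/- lungs lay below both *Myh10*+/+ lungs, as in 24.3% of all genes tested. *Podxl* encodes podocalyxin, a heavily charged sialomucin of the luminal surface. It was counted at 306.8 and 288 CPM in *Myh10*+/+ and at 230.6 and 231 CPM in *Myh10*-/- lungs. The *Myh10*-/- lungs were almost equal and well below both *Myh10*+/+ lungs, and *Podxl* fell by 0.37 on the log2 scale (standard error 0.05, adjusted p = 0.00743 from edgeR), a loss of 22.4% (percent change -22.4). It stayed past the threshold in all 17 alternative settings, with adjusted p-values up to 0.0209. *Podxl* is also a mesothelial gene. The 6 mesothelial markers summed to 339 and 372 CPM in *Myh10*+/+ and 253 and 305 CPM in *Myh10*-/- lungs. Most of that sum was *Msln*, which was called lower (207 and 224 against 129 and 169 CPM). Of the 6 log2 fold changes 3 were below 0 and 3 above, and *Wt1* was at 6.46 and 6.51 against 6.79 and 7.58 CPM. The part of mesothelial cells in *Podxl* was not tested.

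The related sialomucin gene *Cd34* was at 341 and 334 CPM in *Myh10*+/+ and 289 and 309.5 CPM in *Myh10*-/- lungs, with -0.17 as its log2 fold change (adjusted p = 0.115). *Emcn*, the third endothelial sialomucin of the list, was at 142 and 141 CPM in *Myh10*+/+ and 128 and 126 CPM in *Myh10*-/- lungs (-0.15, adjusted p = 0.147). All 3 had *Myh10*-/- lungs below *Myh10*+/+ lungs without overlap, as had 24.3% of all genes tested, and *Podxl* alone passed.

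*Cd93* and *Clec14a* encode C-type lectin-like receptors of one family, which bind the matrix protein multimerin 2, the product of *Mmrn2*. *Cd93* was at 415 and 391 CPM in *Myh10*+/+ and 364 and 347 CPM in *Myh10*-/- lungs (log2 fold change -0.18, adjusted p = 0.122). *Clec14a* was at 178 and 169 CPM in *Myh10*+/+ and 185 and 189 CPM in *Myh10*-/- lungs (log2 fold change 0.11, adjusted p = 0.303). Neither passed, and in both the genotypes did not overlap, with *Myh10*-/- lungs lower for *Cd93* and higher for *Clec14a*. The reads of *Clec14a* per read of *Cd93* were 0.430 and 0.433 in *Myh10*+/+ and 0.509 and 0.543 in *Myh10*-/- lungs. *Ecscr*, an endothelial surface regulator of signalling, had a log2 fold change of -0.12 (adjusted p = 0.502).

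**Figure D3:**
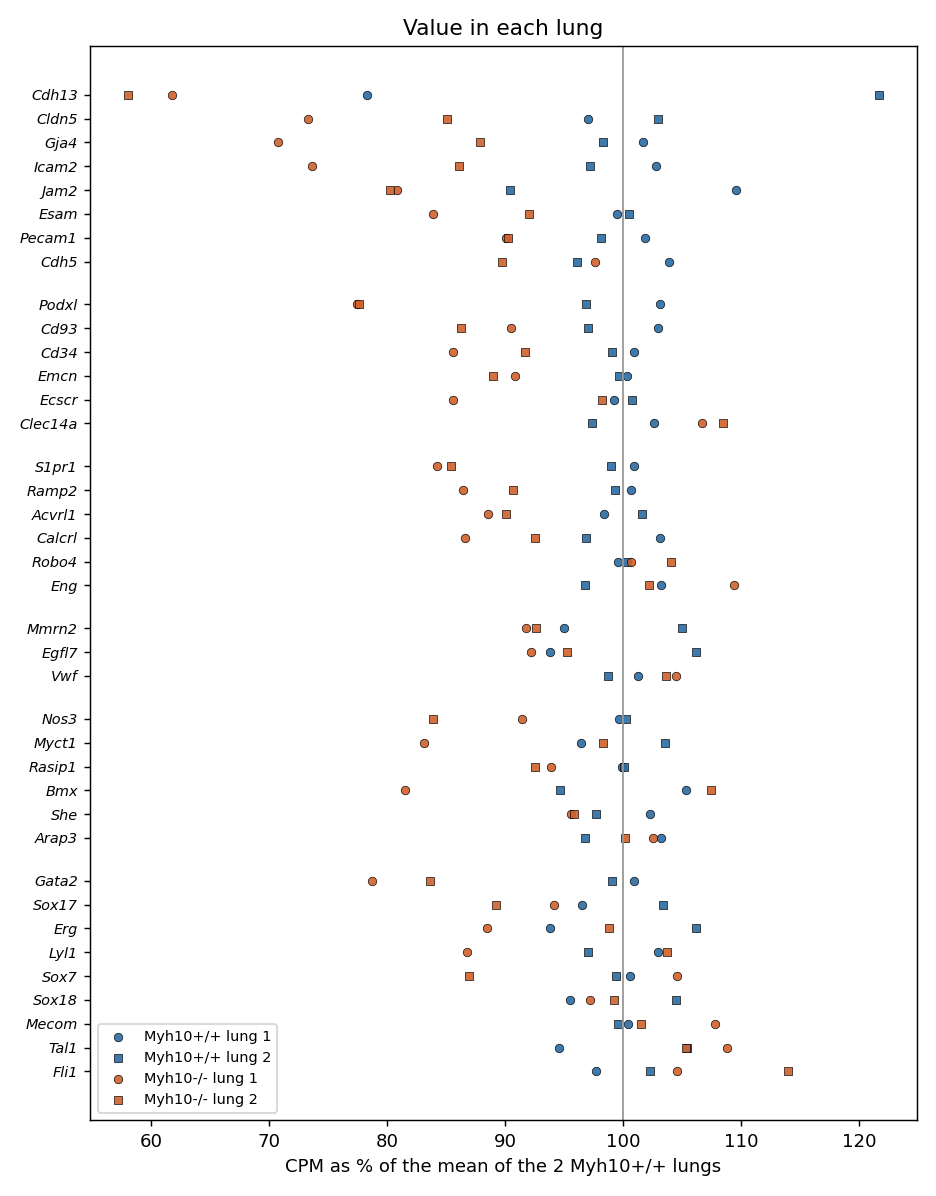
CPM of each gene in each lung as a percentage of the mean of the 2 *Myh10*+/+ lungs (vertical line at 100%). For *Podxl* the *Myh10*-/- lungs (orange) coincide, at 230.6 and 231 CPM, while for *Cldn5*, *Gja4* and *Icam2* lung 1 lies further from the *Myh10*+/+ lungs (blue) than lung 2.

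The 6 receptor genes had a median of -0.16, and none passed. *S1pr1*, the receptor for sphingosine-1-phosphate that steadies endothelial junctions, was at 96.8 and 94.96 CPM in *Myh10*+/+ and 80.8 and 81.9 CPM in *Myh10*-/- lungs. The replicates were close and the genotypes apart, and its log2 fold change was -0.24 (95% interval -0.36 to -0.11, adjusted p = 0.0652). *Calcrl* and *Ramp2* encode the parts of the adrenomedullin receptor. *Calcrl* was at 324 and 304 CPM in *Myh10*+/+ and 272 and 290.5 CPM in *Myh10*-/- lungs. *Ramp2* was at 111 and 109.7 CPM in *Myh10*+/+ and 95.5 and 100.2 CPM in *Myh10*-/- lungs. Their log2 fold changes were -0.16 and -0.18 (adjusted p = 0.161 and 0.14), and the reads of *Ramp2* per read of *Calcrl*, between 0.343 and 0.361, overlapped between genotypes. Of the 75-base windows of the longest annotated *Ramp2* transcript, 73.3% also occur in *Vps25*, so its count is uncertain.

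*Acvrl1* (ALK1) and *Eng* (endoglin, its co-receptor) encode receptors of the TGF-beta family, and neither gene passed. *Acvrl1* was at 212 and 219 CPM in *Myh10*+/+ and 191 and 194 CPM in *Myh10*-/- lungs (log2 fold change -0.16, adjusted p = 0.104). *Eng* was at 129 and 121 CPM in *Myh10*+/+ and 137 and 128 CPM in *Myh10*-/- lungs (0.08, adjusted p = 0.514), with overlap between the genotypes. There were 0.610 and 0.554 *Eng* reads per *Acvrl1* read in *Myh10*+/+ and 0.718 and 0.659 in *Myh10*-/- lungs. *Robo4*, an endothelial guidance receptor, had a log2 fold change of 0.03 (95% interval -0.10 to 0.17).

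**Figure D4:**
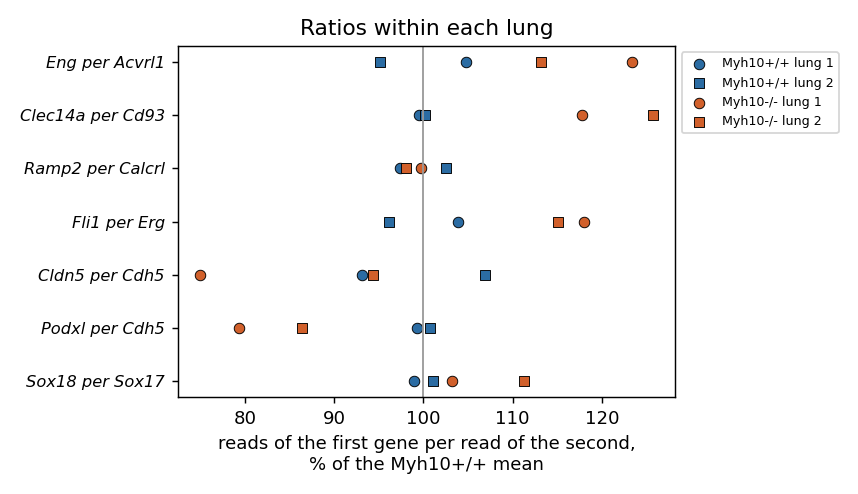
Reads of one gene per read of another in each lung, as a percentage of the *Myh10*+/+ mean, for gene pairs chosen after their values were seen. *Clec14a* per *Cd93*, *Eng* per *Acvrl1*, *Fli1* per *Erg* and *Sox18* per *Sox17* are higher in both *Myh10*-/- lungs (orange) than in both *Myh10*+/+ lungs (blue). *Podxl* per *Cdh5* is lower, while *Cldn5* per *Cdh5* and *Ramp2* per *Calcrl* overlap. *Pecam1* per *Cdh5* and *Tal1* per *Lyl1*, which also overlap, are not drawn. An exact permutation test of 2 against 2 lungs cannot go below a two-sided p of 0.33, so no test was run on these ratios.

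None of the 9 transcription factor genes passed, and their median of -0.06 was nearest to 0 among the groups. *Gata2*, a zinc finger factor of endothelium and blood stem cells, was at 25.7 and 25.2 CPM in *Myh10*+/+ and 20.02 and 21.3 CPM in *Myh10*-/- lungs. There was no overlap, and its fold change was the lowest of the 9, -0.30 on the log2 scale (95% interval -0.46 to -0.14, adjusted p = 0.0683). *Erg*, an ETS factor that maintains endothelial identity, was at 76.0 and 86.0 CPM in *Myh10*+/+ and 71.7 and 80.1 CPM in *Myh10*-/- lungs. The genotypes overlapped (log2 fold change -0.09, adjusted p = 0.599). *Fli1*, the closest relative of *Erg*, was at 46.6 and 48.8 CPM in *Myh10*+/+ and 49.9 and 54.4 CPM in *Myh10*-/- lungs. Its log2 fold change of 0.13 (95% interval -0.04 to 0.30, adjusted p = 0.438) was the highest of the 38 with all lungs. It was 0.099 after correcting for GC content and exon length and 0.067 without *Myh10*-/- lung 2, below *Tal1* and *Eng* in both. Reads of *Fli1* per read of *Erg* were 0.613 and 0.567 in *Myh10*+/+ and 0.696 and 0.679 in *Myh10*-/- lungs.

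The SOXF genes *Sox7*, *Sox17* and *Sox18*, which act in arterial and lymphatic specification, had log2 fold changes of -0.06, -0.12 and -0.02 with adjusted p-values from 0.359 to 0.912. Only *Sox17* had no overlap, and 804 bp of its exons are overlapped by an antisense gene. *Tal1* and *Lyl1*, basic helix-loop-helix factors shared with blood cells, had log2 fold changes of 0.10 and -0.07, and their genotypes overlapped. *Mecom*, a zinc finger factor of arterial endothelium and blood stem cells, was the best counted of the 9, at 156 and 155 CPM in *Myh10*+/+ and 167 and 158 CPM in *Myh10*-/- lungs (0.07, adjusted p = 0.555). After correcting for GC content and for exon length the log2 fold changes of *Sox18* and *Lyl1* were 0.066 and 0.009, on the other side of 0.

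Among the 3 genes of secreted proteins none passed. *Egfl7* was at 249.9 and 283 CPM in *Myh10*+/+ and 246 and 254 CPM in *Myh10*-/- lungs (-0.09, adjusted p = 0.459). *Mmrn2* was at 38.2 and 42.2 CPM in *Myh10*+/+ and 36.9 and 37.3 CPM in *Myh10*-/- lungs (-0.12, adjusted p = 0.502). *Vwf*, the von Willebrand factor of larger vessels and megakaryocytes, was at 38.2 and 37.2 CPM in *Myh10*+/+ and 39.4 and 39.0 CPM in *Myh10*-/- lungs (0.06, adjusted p = 0.755). In *Vwf* and *Mmrn2* the genotypes did not overlap, in opposite directions, and the differences were near the spread between replicates.

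The 6 genes of intracellular signalling had a median of -0.09, and none passed. *Nos3*, the endothelial nitric oxide synthase, was at 26.1 and 26.3 CPM in *Myh10*+/+ and 23.9 and 21.97 CPM in *Myh10*-/- lungs (-0.19, adjusted p = 0.226), but antisense genes overlap 1334 bp of its exons. *Arap3*, which encodes a regulator of small GTPases, was at 199.6 and 187 CPM in *Myh10*+/+ and 198 and 194 CPM in *Myh10*-/- lungs. These overlapped, with a log2 fold change of 0.02 (95% interval -0.09 to 0.13). *Rasip1*, a Rap1 effector of vessel lumen formation with 720 bp of antisense overlap, had a log2 fold change of -0.10. Those of *Myct1*, of the adaptor gene *She* and of the kinase gene *Bmx* were -0.14, -0.06 and -0.08, and none of the 4 passed (adjusted p from 0.442 to 0.895).

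Grouped by where else they are known, the 12 genes also known in blood cells had a median log2 fold change of -0.08, with 7 below 0, and the other 26 had -0.13, with 23 below 0. Of 6 leukocyte markers *Lyz2* and *Laptm5* were called lower (1.34% of all genes were), and in all 6 both *Myh10*-/- lungs lay below both *Myh10*+/+ lungs (24.3% of all genes). The adjusted p-values from edgeR were 0.0293 for *Lyz2* and, rounded, 0.05 for *Laptm5*, which is at the threshold. *Ptprc* (CD45) was at 14.4 and 13.1 CPM in *Myh10*+/+ and 10.5 and 12.3 CPM in *Myh10*-/- lungs. The 6 leukocyte markers summed to 297 and 279.9 CPM in *Myh10*+/+ and 205 and 242 CPM in *Myh10*-/- lungs. Most of that sum was *Lyz2*, with 186 and 173 CPM in *Myh10*+/+ and 117 and 148 CPM in *Myh10*-/- lungs. The 7 megakaryocyte and platelet markers summed to 37.9 and 39.7 against 31.3 and 36.2 CPM, with 0 called. The part of blood cells in the fold changes of the endothelial genes was not tested.

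A further 49 genes known in endothelium and drawn up beside the 38 gave a median log2 fold change of -0.08, with 34 below 0. Of these, 2 were called lower and 1 higher, against 1.34% and 0.298% of all genes. *Slco2a1*, a prostaglandin transporter, fell by 0.43 on the log2 scale (adjusted p = 0.00897) and *Thbd*, the anticoagulant receptor thrombomodulin, by 0.26 (adjusted p = 0.0198). *Ptprb*, the phosphatase VE-PTP of endothelial junctions, rose by 0.26 (adjusted p = 0.0196). The receptor genes *Tek*, *Tie1*, *Kdr* and *Flt1* had log2 fold changes of -0.03, -0.16, -0.10 and -0.12, none of which passed. Among 10 markers of alveolar capillary cells *Car4* fell by 1.77 and *Prx* by 0.58 on the log2 scale, while the other 8 did not pass. *Car4* had 2.84 and 2.99 CPM in *Myh10*+/+ and 0.755 and 0.932 CPM in *Myh10*-/- lungs, from only 21 to 65 reads per lung. Without overlap, 3 of the 10 were lower in *Myh10*-/- lungs (24.3% of all genes) and 3 higher (23.9%), the higher being *Ednrb*, *Apln* and *Aplnr*. The 5 lymphatic endothelial markers had a median of 0.05 with 0 called and all overlapping.

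Markers of some other cell types differed between the same lungs, beside 1.34% of all genes tested called lower and 0.298% higher. All 6 markers of alveolar type 1 cells, the flat epithelium next to the capillaries, (*Ager*, *Hopx*, *Aqp5*, *Rtkn2*, *Emp2* and *Pdpn*) were called lower (median -0.49, summed level 1954 and 1885 against 1262 and 1499.8 CPM). Of 8 pan-epithelial markers 3 were lower (*Cdh1*, *Krt8* and *Elf3*, median -0.16), of 6 cardiac muscle markers 4 (*Myh6*, *Myl7*, *Tnnt2* and *Myl4*, median -0.59), of 6 erythroid markers 1 (*Alas2*, median -0.25) and of 6 mesothelial markers 1 (*Msln*, median -0.04). None of the 6 pericyte (median -0.16), 5 smooth muscle (-0.09), 6 fibroblast (-0.01) or 6 proliferation genes (0.17) passed. Without overlap, 5 of the pericyte markers were lower in *Myh10*-/- lungs (24.3% of all genes) and 5 of the proliferation genes higher (23.9%). Of the smooth muscle genes 2 were lower without overlap, and of the fibroblast genes 1 was lower and 2 were higher. Markers of all these types were counted in every lung, with the cardiac gene *Nppa* too low to test.

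**Figure D5:**
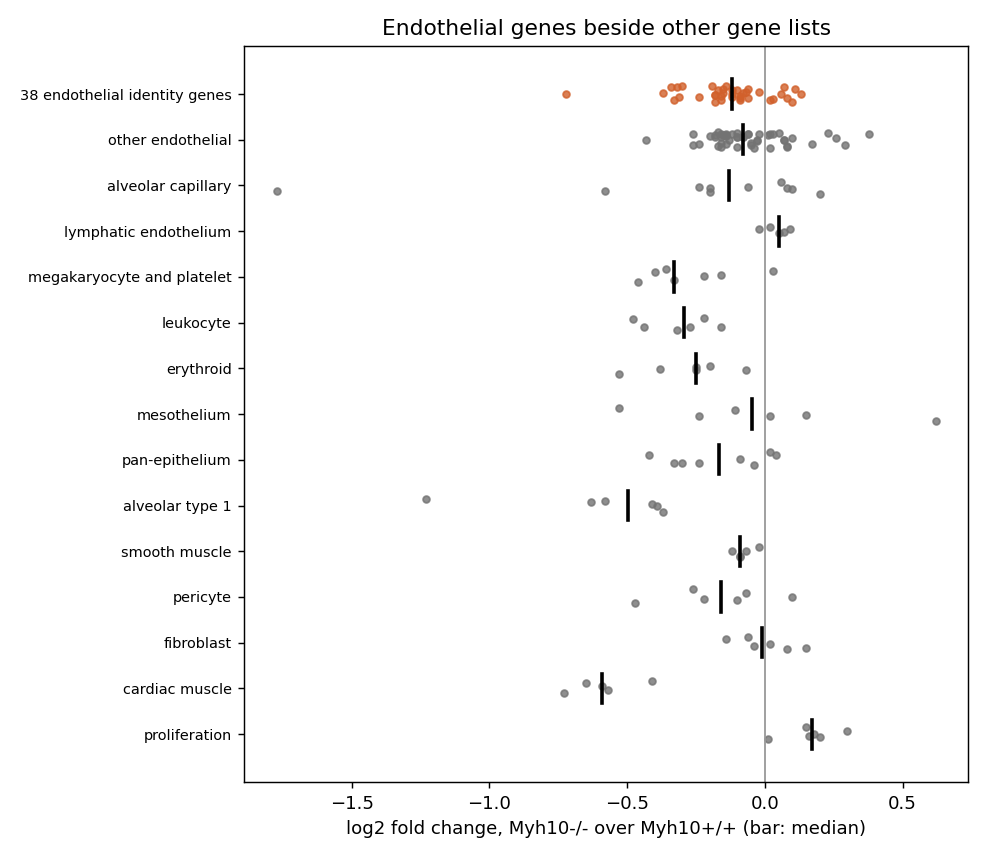
Log2 fold change (*Myh10*-/- over *Myh10*+/+) of each tested gene by list, with the median as a bar. The median of the 38 endothelial identity genes (orange), -0.12, lies beside -0.08 for the other endothelial genes and between -0.49 for alveolar type 1 and 0.17 for proliferation genes.

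Promoter sequence was at hand for 18 of the 38 genes, as RefSeq windows on GRCm38.p6 of 250 bases before to 50 after a start. Those of *Cldn5*, which fell, of *Emcn*, whose *Myh10*-/- lungs lay lower, and of *Eng*, whose lungs overlapped, are shown to set their ETS-type letters side by side. Capitals mark AGGAAG and CCGGAA on either strand, letters bound by ETS factors such as ERG and FLI1 that share the core GGAA.
*Cldn5*, chr16:18776597-18776896, plus strand: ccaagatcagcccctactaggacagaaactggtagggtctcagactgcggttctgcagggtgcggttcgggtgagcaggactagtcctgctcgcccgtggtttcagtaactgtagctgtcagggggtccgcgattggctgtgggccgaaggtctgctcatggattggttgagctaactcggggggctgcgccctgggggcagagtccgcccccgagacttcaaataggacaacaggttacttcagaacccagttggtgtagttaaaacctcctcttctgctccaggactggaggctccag
*Emcn*, chr3:137340828-137341127, plus strand: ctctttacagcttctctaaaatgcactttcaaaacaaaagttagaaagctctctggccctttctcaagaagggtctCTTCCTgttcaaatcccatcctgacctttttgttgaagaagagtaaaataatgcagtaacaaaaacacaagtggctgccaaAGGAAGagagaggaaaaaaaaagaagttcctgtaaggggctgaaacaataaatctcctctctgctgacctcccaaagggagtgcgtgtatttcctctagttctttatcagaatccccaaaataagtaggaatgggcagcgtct
*Eng*, chr2:32646345-32646644, plus strand: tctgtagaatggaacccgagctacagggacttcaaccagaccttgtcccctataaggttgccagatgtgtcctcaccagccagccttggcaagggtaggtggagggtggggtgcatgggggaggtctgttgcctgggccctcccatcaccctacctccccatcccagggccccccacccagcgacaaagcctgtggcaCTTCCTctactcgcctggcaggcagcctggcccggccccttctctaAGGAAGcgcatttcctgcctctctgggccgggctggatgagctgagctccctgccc
The 18 promoters are 1 window per gene, the one nearest its annotated start, while the 32851 windows were all counted without that choice. AGGAAG was found in 8 of the 18 promoters (44.4%), against 35.4% of all 32851 windows of the same length. It stood in the windows of *Calcrl*, *Cd34*, *Egfl7*, *Emcn*, *Eng*, *Myct1*, *Rasip1* and *Robo4*, genes with log2 fold changes from -0.17 to 0.08, and not in that of *Cldn5*. CCGGAA was in 1 of the 18 windows, that of *Lyl1* (5.6%, against 14.9% of all windows). The SOX-type letters AACAAT were in 2, *Calcrl* and *Emcn* (11.1% against 10.7%), and the GATA-type letters AGATAA in 2, *Myct1* and *Tal1* (11.1% against 11.2%). These are matches of letters in a short window and say nothing of binding.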

How the data were processed

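Total RNA of the left lung lobes of 4 E17 mice was made into stranded mRNA libraries. Per the labels and the paper's methods, the authors trimmed low-quality read ends (Reaper), aligned the reads to the mouse genome build GRCm38 using STAR 2.4.0a and counted them on exons by featureCounts 1.5.1, leaving out reads of several genes or regions. The authors deposited raw counts per Ensembl gene, without normalization. The strand setting of the counting is not given in the sources used here, and 10 of the 38 genes have exons overlapped by an antisense gene.

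Groups came from the labels. Counts were tested with edgeR 4.0.16 in R 4.3.3 (TMM, glmQLFit, glmQLFTest) on the 18763 genes averaging 5 counts or more per lung. Alternatives were other scalings, filters, robust fitting, omission of chromosomes X, Y and MT, blocks, a loess correction (span 0.3) for GC content and exon length, DESeq2 1.42.0 and omission of each lung. Scripts were tested on simulated data. With a lung left out, the lone lung was taken to vary like the others. Exon lengths and overlaps are from GENCODE M21 on GRCm38.

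The members and lists were chosen with earlier results of these data known. Values in every lung are given for genes past the threshold, for the best counted and the highest and lowest fold change of each role, for *Pecam1*, *Cdh5* and *Erg*, and for some further genes chosen after their values were seen. Of the other lists, called genes and some defining genes are named. Intervals cover the spread between the 4 lungs only.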

Additional observations from a re-analysis of the deposited data

How the results depend on the processing

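*Podxl* remained called in every alternative and *Cldn5* in all but 2 (a mean of at least 250 counts, adjusted p = 0.0603, and without *Myh10*+/+ lung 2, adjusted p = 0.104). No endothelial identity gene was called higher under any alternative. The count of lower genes, 2, was 12 with no filter on low counts (2.41% of all genes called lower there), 1 with a mean of at least 250 counts (of 36 tested), 4 with robust fitting and 4 without chromosomes X, Y and MT (*Icam2* and *S1pr1* added in both), 5 with the GC content and exon length correction, which added *Cd34*, *Emcn* and *Calcrl*, and 5 at an adjusted p under 0.1. DESeq2 gave 3 (1.38% of all genes called lower there), adding *Icam2*. The cause was not tested. Leaving out 1 lung in turn, the lone lung being assumed to vary like the others, gave between 2 and 12 lower genes. The 12 came without *Myh10*-/- lung 2, where 5.14% of all genes were called lower, and added *Esam*, *Icam2*, *S1pr1*, *Acvrl1*, *Calcrl*, *Cd34*, *Jam2*, *Myct1*, *Gata2* and *Gja4*. *Jam2* was also called without *Myh10*+/+ lung 2, and *Cd93* without *Myh10*-/- lung 1. The median of -0.123 was -0.103 with library totals, -0.098 with the correction, and between -0.145 and -0.114 with a lung left out.

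The lungs carry numbers 1 and 2 in each genotype. Deviations of same-numbered lungs had a correlation of -0.297 across 18763 genes and 0.0114 without chromosomes X and Y, so the numbers show no pairing. With the replicate block 7 genes were lower (2.48% of all genes, 710 called in all against 308), *Esam*, *S1pr1*, *Acvrl1*, *Cd93* and *Gata2* beside *Podxl* and *Cldn5*, and with the block and the correction 6, with a median of -0.098. With the crossed numbers as a block, an alternative added after the data were seen, 3 were lower, *Icam2* being added. The crossed block puts the female lungs together and the male lungs together, while the replicate block puts a female with a male lung.

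Genes near 0 changed sign. With the correction *Sox18* was at 0.066 and *Lyl1* at 0.009, and with the block added at 0.066 and 0.008. With a lung left out, *Sox18* lay between -0.089 and 0.04, *Lyl1* between -0.205 and 0.053, *Bmx* between -0.297 and 0.102, *Arap3* between -0.026 and 0.066 and *Sox7* between -0.2 and 0.066. With library totals 67.6% of the 346 genes called in all were lower, against 81.8% of 308. Replicate counts varied more than counting error alone would give (chi-square per degree of freedom 7.47 between *Myh10*+/+ and 12.6 between *Myh10*-/- lungs). Both values include genes of chromosomes X and Y, and each compares a female with a male lung. *Xist* was at 3920 and 1.84 CPM in *Myh10*+/+ and at 4.1 and 4460 CPM in *Myh10*-/- lungs, so these values are not of replicate spread alone. The median half-width of the 38 genes' 95% intervals was 0.143, before adjustment for the number of genes tested.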
